A study of Arabidopsis thaliana with 16 samples.

Results

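The outermost root tip (zone 1) was compared with the upper meristem section behind it (zone 2) in Arabidopsis thaliana seedlings kept on NaCl. The comparison rests on 4 of the study's 16 arrays, chosen by their labels: 2 of zone 1 and 2 of zone 2, both on medium with 140 mM NaCl. The 2 zone 1 and 2 zone 2 arrays on standard medium were used to say which zone differences were new or lost under salt.

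All roots were of the Columbia ecotype, were grown for 5 days on standard medium and were moved for 1 h, the NaCl groups to salt medium and the standard groups to fresh standard medium. Zone 1 was the first 150 µm or so, up to where the conical tip becomes cylindrical. Zone 2 was the next 200 µm or so, up to where the root turns less optically dense. About 15 sections were pooled for each array, the RNA was amplified in 2 cycles, and each probe set of an Affymetrix ATH1 array has 1 signal (intensity units).

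The tip of a root holds the root cap and, behind it, the stem cell niche and the dividing cells that it feeds. Cells displaced shootward leave the mitotic cycle, may go on copying their DNA without dividing (endoreduplication), and then loosen and extend their walls as they elongate. Salt slows root growth, and cells answer the loss of water and the sodium with protective proteins, wall changes and hormone signals.

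A section is a mixture of cells, so fewer cells of a type and less RNA per cell cannot be told apart in any value below. Whether the paired replicates were grown as separate cultures is not in the labels, and the p-values therefore reflect only how far these arrays differ within a group, which may be technical variation. Replicates correlated at 0.9817 in zone 1 and 0.9819 in zone 2 under NaCl (Pearson r of log2 values over probe sets), and the arrays of the zones at 0.9252 on average. The 3' to 5' signal ratio of the GAPDH control was 31.5 and 30.1 in zone 1 under NaCl, against 11.5 and 10.5 in zone 2 under NaCl. On standard medium it was 25.2 and 34.7 in zone 1 and 18 and 9.82 in zone 2. This sign of RNA or amplification quality thus moved with the zone. The same ratio of the actin control was 38.6 and 31 in zone 1 and 30 and 24.2 in zone 2 under NaCl. On standard medium the actin ratio was 53.3 and 49.6 in zone 1 and 29.8 and 33.8 in zone 2. In zone 1 it thus also differed between the media. The part of either ratio in the differences between zones or between media was not tested. The median signal was also higher in zone 1 under NaCl, at 72.0 and 75.1, against 60.3 and 62.4 in zone 2 under NaCl.

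Under NaCl, 13 of 14 genes of the mitotic apparatus and 15 of 16 of nuclear RNA polymerases and rRNA processing were higher in the tip. There 5 of 7 tested tubulin genes and 9 of 18 genes of a wall acetylation family were lower. All of these groups but the tubulins were formed after the data were seen. Of 17099 probe sets tested, 6902 (40.4%) differed between zone 1 and zone 2 under NaCl at an adjusted p below 0.05 (limma, Benjamini-Hochberg). Of these, 4061 (23.7%) were higher in zone 1 and 2841 (16.6%) were lower, and 1538 and 1191 differed by more than 2-fold on the log2(signal + 16) scale used throughout. That scale understates the change of genes with low signals.

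The balance of directions depended on the scaling. The median difference over all tested probe sets was 0.16 as deposited, -0.06 after median centring and 0.03 after quantile normalization. With median centring 2507 were higher and 3927 lower, and with quantile normalization 3071 were higher and 3214 lower. Small differences near these medians therefore have no settled direction.

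Among probe sets assigned to a single gene, and with the pseudocount of 16, the widest difference was that of AT1G50060, with signals of 9504 and 8764 in zone 1 under NaCl, against 5.62 and 8.31 in zone 2 under NaCl. Its difference was 8.64 ± 0.19 (log2, SE). AT1G65570 followed with 7.25 and AT4G35720 with 4.81. In the other direction AT1G04040 had 6.33 and 5.57 in zone 1, against 2911 and 2270 in zone 2, a difference of -6.88 ± 0.21. AT4G30170 followed at -6.42 and AT1G67330 at -6.08. The annotation gives these genes by locus number only, so no role is stated for them. Each of the 6 passed on standard medium too, in the same direction, and the arrays of the zones did not overlap. Of all tested probe sets, 69.7% did not overlap between the 2 zone 1 and the 2 zone 2 arrays under NaCl.

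PPDK (AT4G15530), pyruvate orthophosphate dikinase, was among the genes with a symbol that were much higher in the tip. Its signals were 533 and 543 in zone 1 under NaCl, against 4.85 and 5.00 in zone 2 under NaCl, and the difference was 4.73 ± 0.23 (adjusted p = 1.68e-10). GH9B6, a glycosyl hydrolase of family 9, the family of plant cellulases, had 374 and 359 against 2.72 and 3.42, a difference of 4.33. Both genes were in zone 2 below the level of 41.4 used to filter probe sets, on every array of both media, so the size of their differences depends on the pseudocount. For PPDK it ran from 3.13 with a pseudocount of 64 to 6.51 with a pseudocount of 1, while that of sks16 lay between 3.61 and 4.13 under every alternative run. sks16, a protein similar to SKU5 of the multicopper oxidase family, had 2546 and 2557 in zone 1, against 131 and 172 in zone 2. UGT76C2, which attaches glucose to cytokinins, had 243 and 322 in zone 1, against 5.57 and 10.2 in zone 2. IAA33, a member of the Aux/IAA proteins that repress auxin responses, had 264 and 403 in zone 1, against 22.0 and 30.5 in zone 2. These 3 genes stood apart between the zones without overlap, by 3.95, 3.64 and 3.03 (log2).

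In the opposite direction LCR68, a small cysteine-rich protein of the defensin-like kind, had 56.4 and 43.0 in zone 1, against 2736 and 2588 in zone 2 under NaCl. The difference was -5.36 ± 0.12 (adjusted p = 7.86e-15). SIM, an inhibitor of cyclin-dependent kinases that turns cells from mitosis to endoreduplication, had 46.1 and 25.8 in zone 1, against 998 and 594 in zone 2. Its difference was -3.95 under NaCl and -4.92 on standard medium. SIM was thus low in the tip on every array of both media. MGL, methionine gamma-lyase, had 1.56 and 1.06 in zone 1, against 252 and 224 in zone 2, a difference of -3.87. SBT4.12, a subtilisin-like protease, had 74.7 and 76.2 in zone 1, against 1237 and 1301 in zone 2, a difference of -3.81. CHIL, a chalcone isomerase-like protein of flavonoid synthesis, had 216 and 168 in zone 1, against 1852 and 1688 in zone 2, a difference of -3.11. The symbol-bearing genes were singled out after their values were seen.

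**Figure D1:**
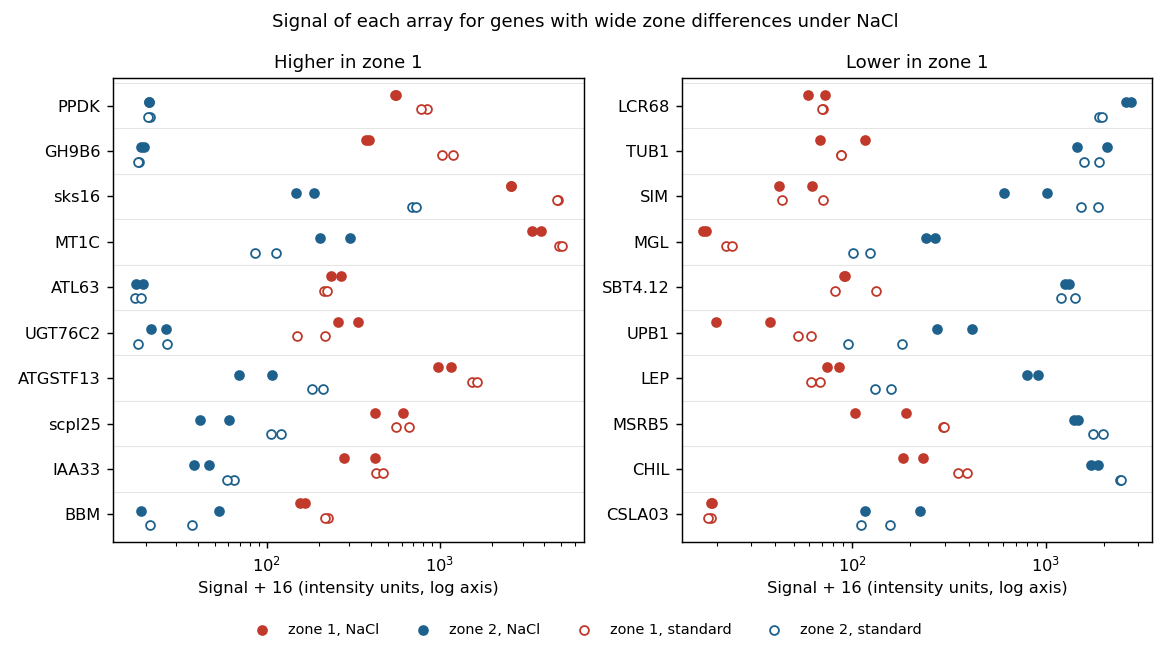
Signal + 16 of each array (intensity units, log axis) for 10 genes higher and 10 genes lower in zone 1 under NaCl, with filled points for NaCl, open points for standard medium, red for zone 1 and blue for zone 2. For each of the 20 genes the red and blue filled points do not overlap, and LEP and UPB1 have a wider gap between the filled than between the open points.

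The labels of the sections were set against markers of the cell types they should hold. Their counts are read against the 23.7% of all tested probe sets that were higher and the 16.6% that were lower in zone 1 under NaCl. Of 33 genes written for the mitotic cell cycle 5 had a tested probe set, and 4 of them were higher in zone 1 under NaCl and none lower. AUR1, an Aurora kinase, had 443 and 460 in zone 1, against 144 and 211 in zone 2. AUR2, another Aurora kinase, had 350 and 311 in zone 1, against 45.0 and 82.2 in zone 2. HTR12, the centromeric histone H3, did not pass, with 129 and 106 in zone 1, against 86.9 and 83.1 in zone 2. The mitotic markers were thus higher in the tip section than in the upper meristem section.

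Of 16 root cap and columella genes 5 were tested, and scpl48, a serine carboxypeptidase-like protein, alone passed as higher, with 2491 and 2572 in zone 1, against 338 and 411 in zone 2. The other 4 did not pass, so the root cap genes as a list did not mark the tip section. With quantile normalization or median centring 1 further root cap gene passed, as lower, and without zone 2 NaCl replicate 2 the number higher was 2. Of 13 stem cell niche genes 3 were tested. BBM, an AP2-family transcription factor of the niche, had 150 and 140 in zone 1, against 36.9 and 2.82 in zone 2 (difference 2.35, adjusted p = 0.000396). AGL42 and JKD, also niche genes, had differences of 0.50 and 1.02 and did not pass, though 2 of the 3 passed without zone 2 NaCl replicate 1 or either zone 1 standard array. Of 4 epidermis and root hair genes tested 3 were lower in zone 1, and 1 was without zone 1 NaCl replicate 2 or without zone 2 NaCl replicate 1. EXPA7 and EXPA18, expansins of growing root hairs, had signals of at most 29.7 in zone 1 and at most 55.9 in zone 2 under NaCl, against 2671 or more in zone 3 under NaCl. The root hair expansins were thus near the low end of the scale in both sections.

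Proteins of spindle checkpoint, mitotic kinases and mitotic chromosomes formed a group chosen after the data were seen. Of its 14 members, which include the 5 above, 13 were higher in zone 1 under NaCl and none lower (12 with quantile normalization, 11 with median centring). The median difference was 1.33, against 0.16 for all tested probe sets. Of all tested probe sets 23.7% were higher and 16.6% lower in zone 1 under NaCl. TOPII, topoisomerase II, which untangles chromosomes, had 851 and 1066 in zone 1, against 149 and 230 in zone 2. BUB3.1, a spindle checkpoint protein, had 841 and 699 in zone 1, against 157 and 171 in zone 2. On standard medium 11 of the 14 were higher in zone 1, and the interaction passed for none of the 14. The interaction here is the zone difference under NaCl minus the zone difference on standard medium.

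Subunits of nuclear RNA polymerases and proteins of ribosomal RNA processing were also grouped after the data were seen. Of 16 members 15 were higher in zone 1 under NaCl and none lower (14 with quantile normalization, 12 with median centring), with a median difference of 0.96. The shares over all tested probe sets were 23.7% higher and 16.6% lower. NRPA2, a large subunit of RNA polymerase I, had 1515 and 1622 in zone 1, against 730 and 759 in zone 2. YAO, a nucleolar protein of rRNA processing, had 984 and 904 in zone 1, against 325 and 391 in zone 2. On standard medium 9 of the 16 passed as higher, and the interaction passed for none, so the larger count under NaCl was not a tested difference between media.

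The tubulin genes found by name, which encode the subunits of microtubules, ran the other way. Of 7 tested, 5 were lower in zone 1 under NaCl and none higher, under the deposited scale, median centring and quantile normalization alike. On the deposited scale 16.6% of all tested probe sets were lower and 23.7% higher. Most gene families here and below were matched by gene names, so a count may cover only part of a family. TUB1 had 52.6 and 101 in zone 1, against 2047 and 1439 in zone 2, a difference of -4.27. TUB5 had 302 and 279 in zone 1, against 2033 and 1774 in zone 2, a difference of -2.64. TUB6 differed by -1.22, while TUA1 and TUB7 did not pass, at -0.10 and 0.16. The zone differences of TUB1 and TUB5 on standard medium were -4.30 and -2.44.

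Counts of wall proteins are read against the 16.6% of all tested probe sets that were lower and the 23.7% that were higher in zone 1. Of 18 trichome birefringence-like (TBL) proteins, a family that acetylates wall polysaccharides, 9 were lower and 2 higher in zone 1 under NaCl. TBL21 had 3.56 and 4.42 in zone 1, against 118 and 93.3 in zone 2, and TBL37 had 184 and 249 in zone 1, against 858 and 809 in zone 2. TBL45 went against the family, with 253 and 231 in zone 1 and 42.7 and 35.9 in zone 2. Of 9 xyloglucan enzymes (XTH), which cut and rejoin xyloglucan, 4 were lower and 1 was higher. XTH19 had 179 and 131 in zone 1, against 650 and 741 in zone 2. Of 6 cellulose synthase-like proteins 4 were lower and none higher, with CSLA03 at 2.76 and 2.88 in zone 1, against 207 and 101 in zone 2. Only 2 of the 6 passed when zone 1 NaCl replicate 2 was left out. Of 15 expansins, which loosen walls, 4 were lower and 2 higher, and without zone 2 NaCl replicate 1 these were 1 and 2. The median difference was -0.59 for the TBL, -0.52 for the XTH and -0.76 for the cellulose synthase-like members. The TBL and cellulose synthase-like groups were formed after the data were seen.

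Of 41 UDP-glycosyltransferases, enzymes that attach sugars to hormones and secondary compounds, 15 were lower and 7 higher in zone 1 under NaCl. Counts in this paragraph are read against the 16.6% of all tested probe sets that were lower and the 23.7% that were higher. UGT78D2, which glucosylates flavonols, had 386 and 300 in zone 1, against 1880 and 1838 in zone 2, a difference of -2.39. Serine carboxypeptidase-like proteins, grouped after the data were seen, split, with 8 higher and 6 lower of 20. Without zone 1 NaCl replicate 2 these were 7 and 3, and without zone 2 NaCl replicate 2 they were 8 and 3. scpl25 was among those higher, at 594 and 405 in zone 1, against 25.1 and 44.5 in zone 2. Of 6 Aux/IAA proteins 2 were higher in zone 1 under NaCl, 1 was lower and 3 did not pass. IAA20, like IAA33 one of those higher, had 134 and 92.9 in zone 1, against 5.72 and 6.47 in zone 2. IAA31 was the one lower, at -0.71, and its difference ran from -1.15 to -0.27 with 1 array left out. Of 14 genes written for starch synthesis 3 were tested, and 2 were higher in zone 1 under NaCl, against 23.7% of all tested probe sets. APL3, the one that did not pass, had a difference of 0.03. SBE2.2, a starch branching enzyme, had 317 and 277 in zone 1, against 69.1 and 106 in zone 2.

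Transcripts of the plastid genome, also grouped after the data were seen, gave no settled count. Of 68 tested, 14 were higher and 1 lower in zone 1 under NaCl, against 23.7% and 16.6% of all tested probe sets. Without zone 1 NaCl replicate 1 the counts were 28 and 0, and without zone 1 NaCl replicate 2 they were 5 and 6. Median centring gave 7 and 1. The median difference was 0.24, against 0.16 over all tested probe sets, and 53 of the 68 did not pass.

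**Figure D2:**
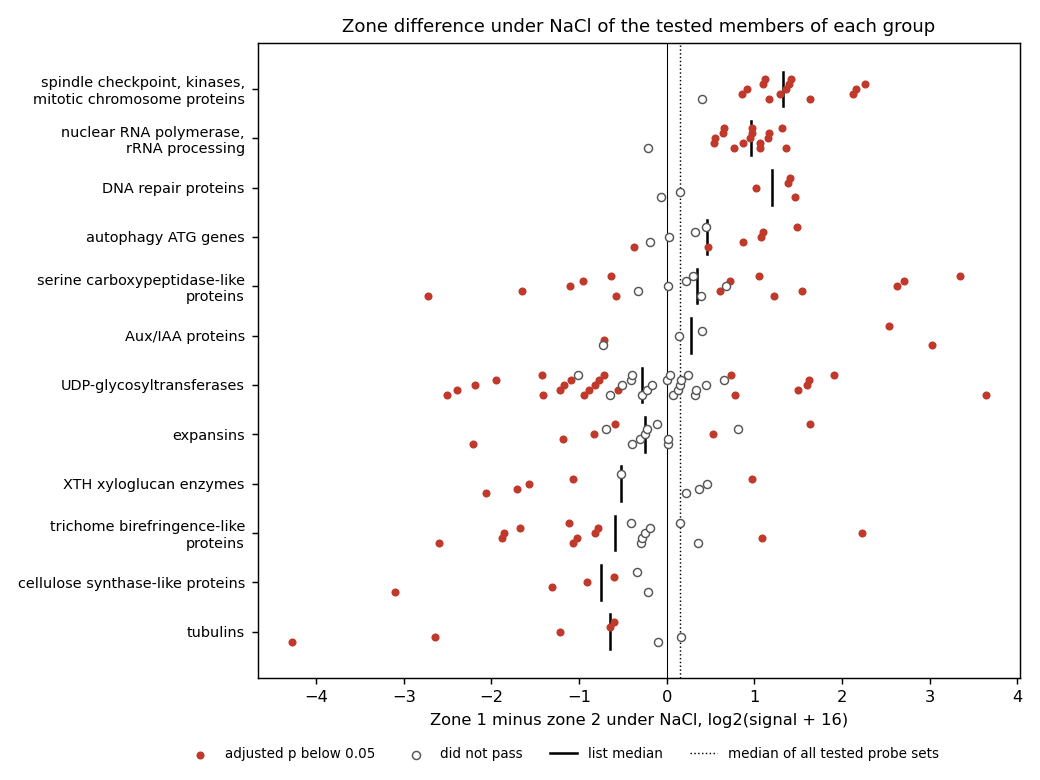
Zone 1 minus zone 2 under NaCl (log2(signal + 16)) for each tested member of 12 gene groups, filled where the adjusted p was below 0.05, with a bar at each group's median and a dotted line at the median of all tested probe sets (0.16). Members of the mitotic and RNA polymerase groups lie right of the dotted line with 1 exception, in the RNA polymerase group, and most tubulins and wall proteins lie left of 0.

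Most zone differences were shared by the media. On standard medium 5891 probe sets (34.5%) passed, 3242 (19.0%) higher and 2649 (15.5%) lower in zone 1. With median centring 37.6% of the standard calls were higher, against 55% as deposited. Of the probe sets that passed under NaCl 63.8% also passed on standard medium, and of those on standard medium 74.8% also passed under NaCl. That is 4406 probe sets, of which 4385 (99.5%) had the same direction. Across probe sets the zone difference under NaCl correlated with that on standard medium at r = 0.835, with a slope of 0.89. This is a description over genes, which are not independent replicates.

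A count of calls made under NaCl alone overstates what was new. Of the 2496 probe sets that passed under NaCl only, 2171 had the same sign on standard medium. Of 1485 that passed on standard medium only, 1253 had the same sign under NaCl. The interaction itself passed for 200 probe sets (1.17%), 49 (0.287%) positive and 151 (0.883%) negative, and 2087 had an unadjusted p below 0.05.

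A zone difference was called new where it passed under NaCl, did not pass on standard medium and had an interaction that passed. By this rule 62 were new (0.363% of those tested) and 41 lost (0.240%). A further 21 (0.123%) passed on both media in opposite directions, 16 of them with an interaction that passed. The remaining 81 of the 200 passed on both media in 1 direction with different sizes, 54 wider and 27 narrower under NaCl. The number of arrays limits these counts. Without 1 array at a time the interaction passed for 100 to 181 probe sets, lowest without zone 2 NaCl replicate 1. It passed for 128 without zone 1 NaCl replicate 1, 130 without zone 1 standard replicate 2 and 112 without zone 2 standard replicate 3. Without zone 2 NaCl replicate 1, 31 were new and 21 lost. The lost differences also numbered 22 to 27 without zone 1 NaCl replicate 1 or any single standard array, and those in opposite directions 11 without zone 2 standard replicate 3.

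**Figure D3:**
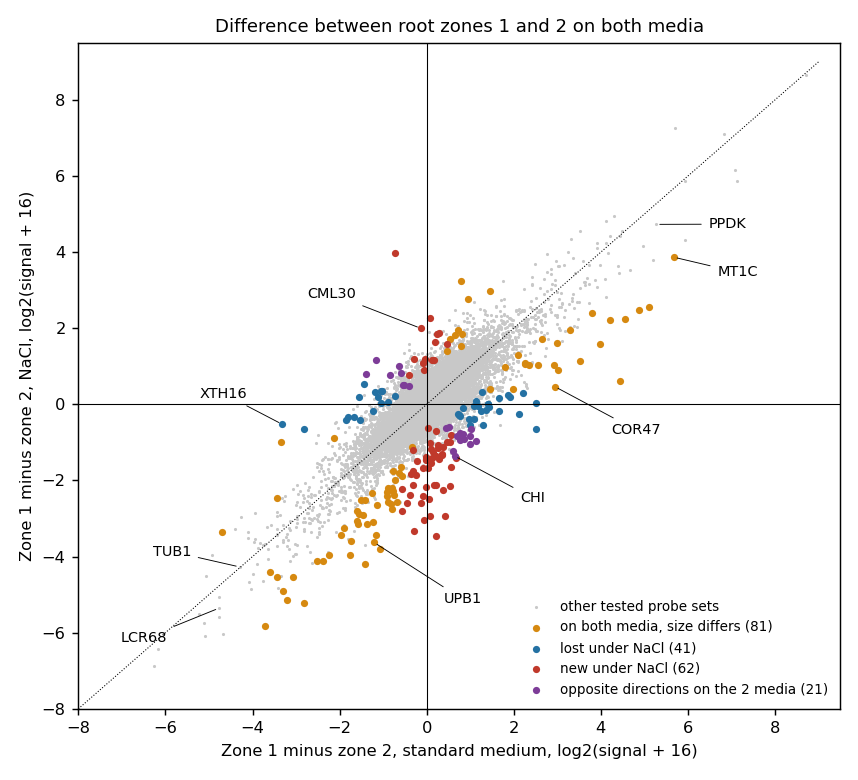
Zone 1 minus zone 2 under NaCl (vertical) against the same on standard medium (horizontal), both as log2(signal + 16) differences, for the 17099 tested probe sets, with the 62 new, 41 lost, 21 opposite and 81 size-changed differences in colour and the dotted line where both are equal. Most points lie along the dotted line, and new differences lie mainly below the horizontal axis.

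Of the 62 new differences 48 were lower and 14 higher in zone 1. Among the 48, the signal rose under NaCl in zone 2 for 37 and fell in zone 1 for 15. Among the 14, it rose in zone 1 for 9 and fell in zone 2 for 6. Those counts use the same arrays as the interaction and describe it. Of all tested probe sets 9.64% changed between media in zone 1, 5.01% rising and 4.63% falling under NaCl. In zone 2 11.4% changed, 6.19% rising and 5.20% falling.

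CML30 (AT2G15680), a calmodulin-like calcium sensor, was a new difference with higher signal in the tip. It had 635 and 635 in zone 1 under NaCl, against 126 and 172 in zone 2 under NaCl. The standard arrays of this gene gave 94.5 and 134 in zone 1, against 122 and 129 in zone 2. The zone 1 NaCl arrays stood above all others, and the remaining groups overlapped. The difference was 2.00 under NaCl and -0.14 on standard medium, an interaction of 2.13 ± 0.29 (adjusted p = 0.000663).

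AT3G55720 was also a new difference, with 973 and 1284 in zone 1 under NaCl, against 92.5 and 31.5 in zone 2 under NaCl. In roots on standard medium the signals were 47.0 and 54.0 in zone 1, against 91.1 and 95.9 in zone 2. The interaction was 4.70 ± 0.45 (adjusted p = 3.25e-05), and the rise under NaCl in zone 1 was 4.09. AT2G34340 had 663 and 645 in zone 1 under NaCl, against 130 and 116 in zone 2 under NaCl, with 116 to 256 in these zones over both media outside zone 1 under NaCl. Its interaction was 2.2 ± 0.25. LUL1 (AT5G03200), a RING-type ubiquitin ligase, had 169 and 182 in zone 1 under NaCl, against 69.3 and 69.1 in zone 2 under NaCl. Without added NaCl it had 156 and 129 in zone 1, against 127 and 124 in zone 2. Its interaction was 1.01 ± 0.23 (adjusted p = 0.0466), and the call was lost without any single one of the 8 arrays (adjusted p 0.0597 to 0.168).

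New differences with lower signal in the tip were led by AT5G64100. It had 22.9 and 36.1 in zone 1 under NaCl, against 424 and 252 in zone 2 under NaCl. Its signals on standard medium were 71.8 and 71.3 in zone 1, against 69.0 and 64 in zone 2. It fell in zone 1 by 0.96 and rose in zone 2 by 2.06 under NaCl, so that the zones parted in both directions from a common level. The interaction was -3.02 ± 0.29. AT2G34810, AT2G42760 and AT3G17130 had interactions of -2.68, -2.63 and -2.31, of which that of AT2G34810 was lost with a pseudocount of 64 (adjusted p = 0.0864).

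NANA (AT3G12700), an aspartic protease, had 6.54 and 27.4 in zone 1 under NaCl, against 149 and 97.5 in zone 2 under NaCl. On standard medium it had 57.9 and 41.8 in zone 1, against 38.8 and 46.3 in zone 2. It too parted in both directions, and its interaction was -2.29 ± 0.36 (adjusted p = 0.00263), lost with zone 1 and zone 2 arrays only (0.0616). PMEPCRF (AT5G53370), a pectin methylesterase of the cell wall, had 10.4 and 21.2 in zone 1 under NaCl, against 79.5 and 58.7 in zone 2 under NaCl. It had 7.72 to 10.6 in both zones on standard medium, so the zone 2 NaCl arrays alone stood out. The interaction was -1.40 ± 0.27 (adjusted p = 0.0138).

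The call for PMEPCRF was lost without zone 1 NaCl replicate 1 (adjusted p = 0.0687), zone 2 NaCl replicate 1 (0.0798), zone 1 standard replicate 1 (0.0597) or zone 2 standard replicate 3 (0.0501), and with a pseudocount of 64 or zone 1 and zone 2 arrays only (up to 0.141). TBL41, of the wall acetylation family, had 23.4 and 40.1 in zone 1 under NaCl, against 85.8 and 80.0 in zone 2 under NaCl. Its interaction of -1.34 (adjusted p = 0.0317) was lost without any single array other than zone 1 NaCl replicate 2 and zone 1 standard replicate 1, with an adjusted p of up to 0.144. CCL (AT3G26740) had an interaction of -2.32 (adjusted p = 0.0469), lost without any single array other than zone 2 standard replicate 4 (up to 0.183).

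Several new differences with lower signal in the tip were of genes with higher signals further up the root, in zone 3, the next section shootward. On standard medium NANA had 769 and 928 in zone 3, PMEPCRF had 384 and 430, and AT5G64100 had 3429 and 3268, each above every zone 2 array. Among the 48 new differences that were lower in zone 1, 30 (62.5%) had both zone 3 standard arrays above all 4 zone 2 arrays of both media. That held for 46.3% of all probe sets lower in zone 1 under NaCl and for 29.4% of all tested. It held likewise for 10 of the 16 lost differences that had been lower in zone 1 on standard medium (62.5%), for 13 of the 25 that had been higher (52%) and for 6 of the 14 new differences that were higher (42.9%). The share was the same among lost as among new differences that were lower in zone 1. The classes were called with the same zone 2 arrays, so these shares are a description only. The position of the cut along the root was not measured, and its part in the new differences was not tested.

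**Figure D4:**
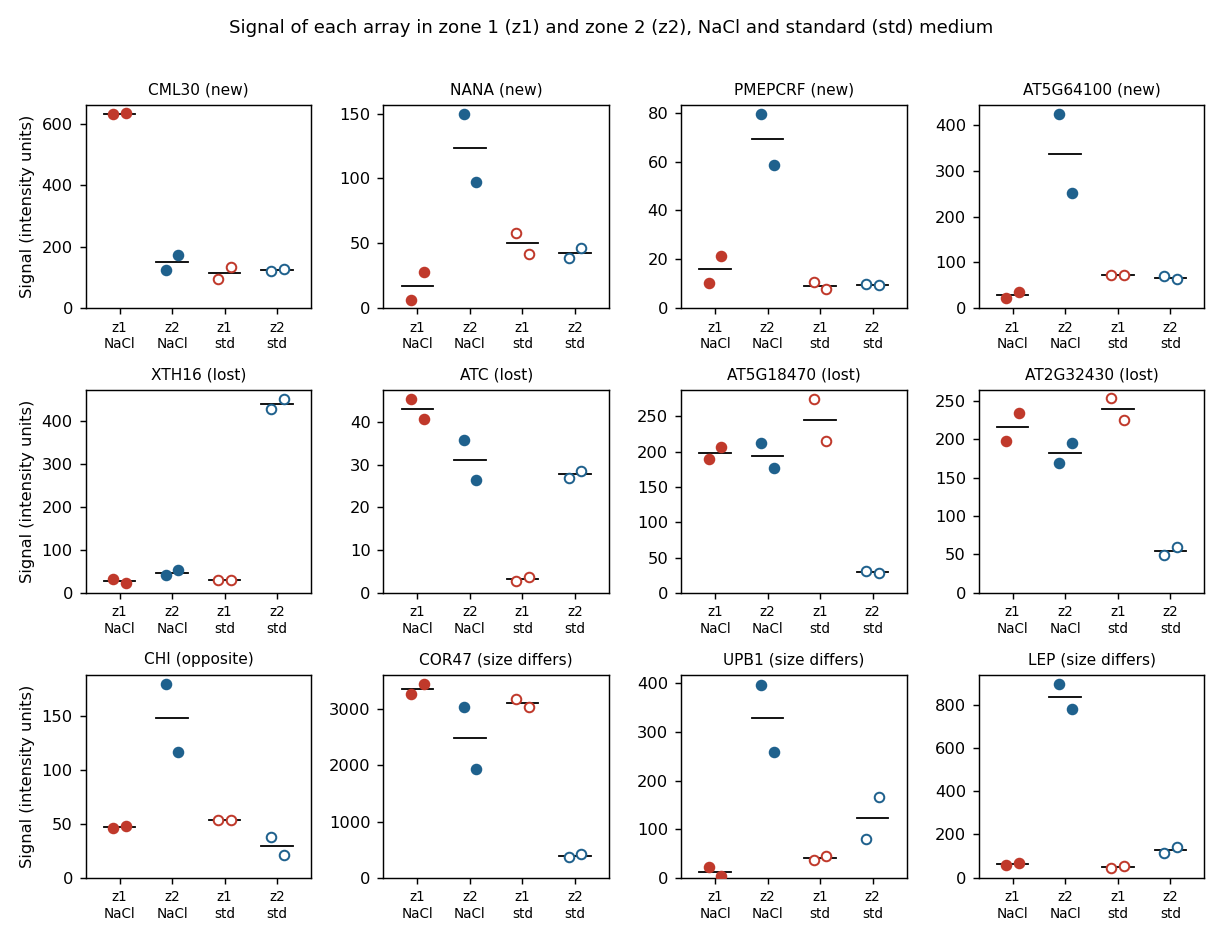
Signal of each array (points, intensity units, linear axis from 0) and group mean (line) for 12 genes in zone 1 NaCl, zone 2 NaCl, zone 1 standard and zone 2 standard, 2 arrays a group. CML30 stands out in zone 1 under NaCl, NANA, PMEPCRF, AT5G64100, CHI, UPB1 and LEP in zone 2 under NaCl, and XTH16 in zone 2 on standard medium.

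Of the 41 lost differences 25 had been higher and 16 lower in zone 1 on standard medium. Among the 25, the signal fell under NaCl in zone 1 for 15 and rose in zone 2 for 10. Among the 16, it fell in zone 2 for 10 and rose in zone 1 for 6.

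XTH16 (AT3G23730), a xyloglucan enzyme, was a lost difference. It had 33.0 and 23.1 in zone 1 under NaCl, against 41.1 and 53.4 in zone 2 under NaCl. The standard arrays of this gene gave 29.3 and 29.4 in zone 1, against 427 and 449 in zone 2. The zone 2 signal fell by 2.85 under NaCl, and the zone 1 value of NaCl minus standard was -0.05 (adjusted p = 0.925). The zone difference was -0.52 under NaCl (adjusted p = 0.0607) and -3.32 on standard medium, an interaction of 2.80 ± 0.30 (adjusted p = 8.7e-05). XTH19, of the same family, had differences of -2.07 under NaCl and -2.11 on standard medium.

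ATC (AT2G27550), a relative of the flowering repressor TERMINAL FLOWER 1, had 45.3 and 40.6 in zone 1 under NaCl, against 35.7 and 26.4 in zone 2 under NaCl. In roots on standard medium the signals were 2.67 and 3.60 in zone 1, against 26.8 and 28.6 in zone 2. Here the tip signal rose by 1.62 under NaCl, and the interaction was 1.52 ± 0.24. Of these ATC signals only 45.3 was above the level used to filter probe sets. ATC was thus tested only because of its signals in other zones, and the size of its rise in the tip is not settled. The ATC interaction was lost with a pseudocount of 64 and with zone 1 and zone 2 arrays only (adjusted p up to 0.135), and its value ran from 0.62 to 3.27 over the alternatives. AT2G14095, which stands in the root cap list, had 47.5 and 55.7 in zone 1, against 70.8 and 68.7 in zone 2 under NaCl. Without added NaCl it had 29.8 and 31.4 in zone 1, against 142 and 153 in zone 2, so that it was higher behind the tip. Its interaction of 1.47 was lost without zone 2 standard replicate 4 (adjusted p = 0.0521), with a pseudocount of 1 and with zone 1 and zone 2 arrays only (up to 0.0524). AT3G59130 had an interaction of 1.96, lost without any single array other than zone 1 NaCl replicate 2 (adjusted p up to 0.163).

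Among lost differences that had been higher in the tip on standard medium, AT5G18470 had 189 and 206 in zone 1 under NaCl, against 212 and 176 in zone 2 under NaCl. Its signals on standard medium were 275 and 214 in zone 1, against 30.4 and 28.6 in zone 2. AT2G32430 had 198 and 235 in zone 1 under NaCl, against 169 and 195 in zone 2 under NaCl, and on standard medium 254 and 225 in zone 1, against 49.2 and 59.4 in zone 2. In both genes zone 2 rose to the level of the tip, and the interactions were -2.48 and -1.63.

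SAG101 (AT5G14930), a lipase-like protein of senescence and immunity, instead fell in the tip to about the level of zone 2. It had 35 and 51.7 in zone 1 under NaCl, against 43.1 and 55.7 in zone 2 under NaCl, and on standard medium 179 and 202 in zone 1, against 51.4 and 78.3 in zone 2. GH3.17 (AT1G28130), which couples auxin to amino acids, fell in the tip in the same way, with 139 and 112 in zone 1 under NaCl, against 168 and 103 in zone 2 under NaCl. On standard medium GH3.17 had 421 and 480 in zone 1, against 131 and 186 in zone 2. The interactions were -1.52 for SAG101 and -1.51 for GH3.17 (adjusted p = 0.0306 and 0.0448).

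The SAG101 call was lost without any single array other than zone 1 NaCl replicate 2 and zone 2 standard replicate 4 (adjusted p up to 0.148). The GH3.17 call was lost without any single array other than zone 2 NaCl replicate 2 and zone 2 standard replicate 4 (up to 0.179). AT5G53990 had an interaction of -1.84, lost without any single array other than zone 2 NaCl replicate 2 (up to 0.123). AT4G26790 had -1.72, lost without any single array (0.0595 to 0.132).

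**Figure D5:**
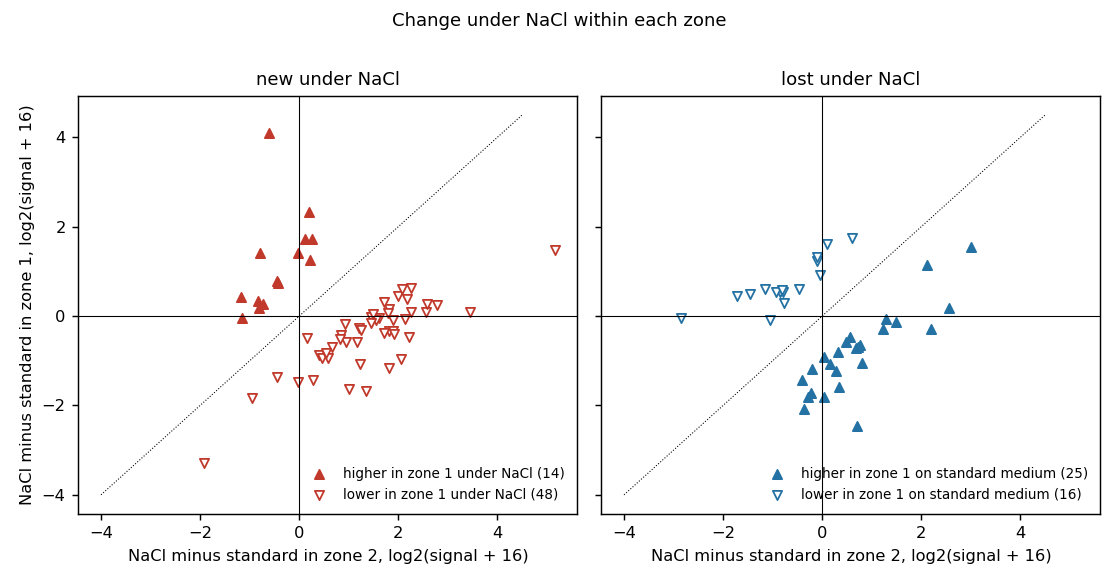
NaCl minus standard (log2(signal + 16)) in zone 1 (vertical) against the same in zone 2 (horizontal) for the 62 new (left) and 41 lost (right) zone differences, with triangles for the direction of the zone difference and a dotted line where both zones change alike. New differences lower in zone 1 lie mostly at right, where the signal was higher under NaCl in zone 2, and lost differences lie on both arms.

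Differences that passed in opposite directions included AT4G17350, with 304 and 314 in zone 1 under NaCl, against 188 and 155 in zone 2 under NaCl. On standard medium it had 93.8 and 115 in zone 1, against 317 and 285 in zone 2. The groups did not overlap on either medium, and the zone difference was 0.80 under NaCl and -1.40 on standard medium, an interaction of 2.21 ± 0.24. CHI (AT2G43570), a putative chitinase, had 46.0 and 47.6 in zone 1 under NaCl, against 180 and 116 in zone 2 under NaCl. The standard arrays of this gene gave 53.2 and 53.7 in zone 1, against 37.4 and 21.3 in zone 2. The interaction was -2.0 ± 0.32, and CHI rose in zone 2 by 1.85. The standard difference of 0.64 (adjusted p = 0.0356) was lost without either zone 1 standard array or without zone 2 standard replicate 4 (adjusted p up to 0.33).

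PSAE-1, a subunit of photosystem I, had 2.48 to 24.9 in all 8 arrays of both zones, below the level used to filter probe sets, so that it was tested only through its signals in other zones and no direction is read from it. Its interaction of -1.68 was lost with a pseudocount of 64 and with zone 1 and zone 2 arrays only (adjusted p up to 0.101). Its NaCl difference of -0.66 was lost with that pseudocount too, and without either zone 1 NaCl array or zone 2 NaCl replicate 2 (up to 0.156). AT4G23960 had an interaction of 2.34 (adjusted p = 0.0221), lost without any single array other than zone 1 NaCl replicate 1 and zone 2 standard replicate 4 (adjusted p up to 0.11). Its NaCl difference was lost without replicate 2 of either zone (up to 0.127), and its standard difference without zone 1 standard replicate 2 or zone 2 standard replicate 3 (up to 0.102).

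Among differences present on both media that widened under NaCl, LEP (AT5G13910), an ERF-family transcription factor, had 57.8 and 69.3 in zone 1 under NaCl, against 895 and 780 in zone 2 under NaCl. In roots on standard medium the signals were 45.5 and 52.4 in zone 1, against 115 and 144 in zone 2. LEP rose in zone 2 by 2.56, and its interaction was -2.27 ± 0.26 (adjusted p = 0.000151). AT2G43890 had 30.4 and 37.5 in zone 1 under NaCl, against 939 and 864 in zone 2 under NaCl, with 86.5 and 132 in zone 2 on standard medium and an interaction of -2.78.

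UPB1 (AT2G47270) is a bHLH transcription factor that sets where cells pass from division to elongation by way of peroxidases and reactive oxygen. It had 21.6 and 3.80 in zone 1 under NaCl, against 398 and 259 in zone 2 under NaCl. Without added NaCl it had 36.5 and 45.5 in zone 1, against 79.2 and 166 in zone 2. UPB1 fell in zone 1 by 1.06 and rose in zone 2 by 1.36 under NaCl. Both zone 1 NaCl signals were below the level used to filter probe sets, so the size of the fall depends on the pseudocount. The interaction was -2.42 ± 0.44 (adjusted p = 0.00965). The call was lost without zone 2 NaCl replicate 1 (adjusted p = 0.0659) or zone 2 standard replicate 3 (0.0527), and with zone 1 and zone 2 arrays only (0.0833). Its standard zone difference was lost without zone 1 standard replicate 1 or zone 2 standard replicate 4 (up to 0.128). On standard medium the peak of UPB1 was in zone 3, at 1544 and 1112, and that of LEP was there too, at 2216 and 1647. Of the 45 size-changed differences that were lower in zone 1 and wider under NaCl, 31 (68.9%) had both zone 3 standard arrays above all 4 zone 2 arrays. The share was 46.3% for all probe sets lower in zone 1 under NaCl and 29.4% for all tested. These shares too are a description only.

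COR47 (AT1G20440), a dehydrin that protects cells losing water, had 3270 and 3455 in zone 1 under NaCl, against 3042 and 1943 in zone 2 under NaCl. Its signals on standard medium were 3174 and 3038 in zone 1, against 361 and 423 in zone 2. The tip was thus high on both media, and zone 2 rose by 2.59 under NaCl. The zone difference narrowed to 0.46 under NaCl, against 2.94 on standard medium, an interaction of -2.48 ± 0.23 (adjusted p = 3.08e-05). The remaining NaCl difference was lost without either zone 1 NaCl array or without zone 2 NaCl replicate 2 (adjusted p up to 0.499). LTI30, another dehydrin, kept its direction, with 3968 and 3520 in zone 1, against 8039 and 7708 in zone 2 under NaCl. Its difference was -1.07 under NaCl and -1.42 on standard medium.

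MT1C, a metallothionein that binds metal ions, had 3364 and 3838 in zone 1 under NaCl, against 287 and 186 in zone 2 under NaCl. On standard medium it had 4859 and 5075 in zone 1, against 96.6 and 69.0 in zone 2. MT1C rose in zone 2 by 1.34, and the zone difference was 3.86 under NaCl, against 5.67 on standard medium. UGT87A2, a glycosyltransferase, had 2063 and 2022 in zone 1 under NaCl, against 626 and 700 in zone 2 under NaCl, and on standard medium 1325 and 1294 in zone 1, against 151 and 153 in zone 2. It rose in both zones, by 0.64 in zone 1 and by 2.01 in zone 2. AT1G48070 narrowed from the other side: it had 91.9 and 78.3 in zone 1 under NaCl and 595 and 585 in zone 1 on standard medium, while its zone 2 signals were below 2 on both media. The AT1G48070 interaction of -2.55 was lost with a pseudocount of 1 (adjusted p = 0.294).

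APL4 (AT2G21590), a large subunit of ADP-glucose pyrophosphorylase, the enzyme that commits carbon to starch, had 139 and 116 in zone 1 under NaCl, against 9.23 and 1.37 in zone 2 under NaCl. The standard arrays of this gene gave 41.4 and 34.8 in zone 1, against 11.6 and 12.8 in zone 2. Its interaction of 1.83 (adjusted p = 0.0287) was lost without any single array other than zone 2 NaCl replicate 1 (up to 0.117), and with a pseudocount of 1 (0.151). Its standard difference was lost without zone 1 standard replicate 1 or either zone 2 standard array (up to 0.0888). Of the other genes with a symbol, TET3, a tetraspanin, had an interaction of 0.75 and rpoC1, of the plastid RNA polymerase, 1.2. Both were lost without any single array, at an adjusted p of 0.0553 to 0.142 for TET3 and 0.0531 to 0.171 for rpoC1. The standard difference of rpoC1 was lost without replicate 1 of zone 1 NaCl or zone 1 standard or without either zone 2 standard array (up to 0.274).

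The interactions of HOS3-1 (-1.32, a protein like fatty acid elongases), GSTU27 (-1.06, a glutathione S-transferase) and GT72B1 (-1.01, a glucosyltransferase of phenolic compounds) depended on single arrays as well. HOS3-1 was lost without replicate 1 of zone 1 NaCl, zone 2 NaCl or zone 1 standard or without zone 2 standard replicate 4 (up to 0.0914). GSTU27 was lost without zone 1 NaCl replicate 2, zone 2 NaCl replicate 1, zone 1 standard replicate 2 or zone 2 standard replicate 3 (up to 0.1), and its standard difference without zone 1 standard replicate 1 or zone 2 standard replicate 4 (up to 0.0948). GT72B1 was lost without any single array other than zone 2 NaCl replicate 2 and zone 1 standard replicate 1 (up to 0.178). With these, all 23 genes with a symbol and an interaction that passed have been named.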

How the data were processed

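Signals from 16 ATH1 arrays, 2 for each of 8 groups of zone and medium, were analysed. The deposited values are intensities on a linear scale made with MAS5, per the submitters' processing notes. In each array the mean after trimming 2% at each end was 250.02 to 250.03, which is a common scaling. No detection calls, dates or batches were used. The 64 control probe sets were left out, and the 17099 probe sets with a signal above 41.357 (the 40th percentile) on 2 or more of the 16 arrays were tested.

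The deposited intensities were taken as log2(signal + 16) and fitted, with 8 group means, in limma 3.58.1 in R 4.3.3 (lmFit, eBayes with trend; 8 residual and 8.607 prior degrees of freedom). Its contrasts were zone 1 minus zone 2 on each medium, their difference (the interaction), and NaCl minus standard in each zone. Tests were two-sided, with Benjamini-Hochberg adjustment over all tested probe sets and a threshold of 0.05. The median standard error was 0.214 for a zone difference and 0.302 for an interaction.

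Of the tested probe sets, 9611 have a single gene in the platform's probe table, 337 have several and 7151 have none listed. Only 1278 of the 9611 carry a symbol, and the RefSeq table used for updating names adds no roles. Named genes were the largest differences or interactions of each class among probe sets with 1 gene, and, added after their values were seen, genes with a symbol. Gene families were mostly matched by gene names, so members without a matching name were missed. Members of gene groups are named by smallest p. Where a gene had several probe sets, its group used the one of highest mean. The groups, genes and comparisons were chosen with earlier results of these data known. The fit was also run on simulated arrays with independent noise, which cannot show effects shared by arrays, and no result here rests on that run. Alternatives were pseudocounts of 1 and 64, median centring, quantile normalization, dropping the filter or raising it to the 60th percentile, no trend in eBayes, subsets of arrays, a replicate block and each array left out. Sequences were not used here.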

Additional observations from a re-analysis of the deposited data

Results flagged for a closer look

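The difference between zones 1 and 2 differed between NaCl and standard medium, by the interaction test, for 200 probe sets and for 39 of the genes named above. The values are the NaCl zone difference minus the standard zone difference on the log2 scale, and no explanation is weighed. Among new differences the interaction was 4.70 for AT3G55720, 2.2 for AT2G34340, 2.13 for CML30 and 1.01 for LUL1. It was -3.02 for AT5G64100, -2.68 for AT2G34810, -2.63 for AT2G42760, -2.32 for CCL, -2.31 for AT3G17130, -2.29 for NANA, -1.40 for PMEPCRF and -1.34 for TBL41. Among lost differences it was -2.48 for AT5G18470, -1.84 for AT5G53990, -1.72 for AT4G26790, -1.63 for AT2G32430, -1.52 for SAG101 and -1.51 for GH3.17. It was 2.80 for XTH16, 1.96 for AT3G59130, 1.52 for ATC and 1.47 for AT2G14095.

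Among differences in opposite directions on the media it was 2.34 for AT4G23960, 2.21 for AT4G17350, -2.0 for CHI and -1.68 for PSAE-1. Among differences of unequal size it was 1.83 for APL4, 1.2 for rpoC1 and 0.75 for TET3. It was -2.78 for AT2G43890, -2.55 for AT1G48070, -2.48 for COR47, -2.42 for UPB1, -2.27 for LEP and -1.81 for MT1C. The remaining values were -1.38 for UGT87A2, -1.32 for HOS3-1, -1.06 for GSTU27 and -1.01 for GT72B1. Groups of 2 arrays are too small to test a single array as an outlier.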

How the results depend on the processing

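No named zone difference or interaction that passed changed sign under any alternative run. Of 39 named interactions 16 held under every alternative. They were CML30, XTH16, COR47, LEP, MT1C, UGT87A2, CHI, AT2G32430, AT2G34340, AT2G42760, AT2G43890, AT3G17130, AT3G55720, AT4G17350, AT5G18470 and AT5G64100. The number lost was 19 with zone 1 and zone 2 arrays only, 11 with a pseudocount of 1, 9 with no filter and 10 to 16 with 1 array left out. The interaction passed for 124 probe sets with no filter and 86 with zone 1 and zone 2 arrays only, and new differences then numbered 27 with those arrays only. Lost differences numbered 24 with no filter and 15 with those arrays only. Differences in opposite directions numbered 35 with a pseudocount of 1 and 13 with no filter.

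With each array left out the interaction passed for 100 to 181 probe sets, with 31 to 59 new, 21 to 34 lost and 11 to 31 in opposite directions. Calls of zone 1 minus zone 2 under NaCl numbered 5118 to 6783, and calls of zone 1 minus zone 2 on standard medium numbered 3885 to 5946, lowest without zone 2 standard replicate 4. A lone array was assumed to vary like the other groups. With a replicate block the interaction passed for 210 probe sets, 68 new and 38 lost, and 6943 differed under NaCl. The replicate numbers showed no pairing of the NaCl samples in the values: deviations of same-numbered arrays correlated between -0.0106 and 0.0574. Whether same-numbered sections came from the same plants is not in the labels, and these correlations cannot show it.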

Other observations

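Under NaCl several of the genes above had their highest signals outside the zones compared. COR47 had 14264 and 13503 in zone 3 and 13313 and 14410 in zone 4 under NaCl, and ATC had 4146 and 5138 in zone 4 under NaCl. UPB1 and LEP were highest in zone 3, with 1627 and 1610 for UPB1 and 4074 and 3745 for LEP under NaCl, against 87.6 and 109 for UPB1 and 74.8 and 97.9 for LEP in zone 4 under NaCl. XTH16 had 38.4 and 49.0 in zone 3 under NaCl, against 513 and 604 in zone 3 on standard medium, so its low signal under NaCl was seen in both zones where it was high on standard medium. TOPII had 851 and 1066 in zone 1 under NaCl and 2.46 and 8.03 in zone 3 under NaCl.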
